A study of Mus musculus with 4 samples.

Results

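The Zfp genes are mouse genes whose names are Zfp followed by a number, and they encode zinc finger proteins. Among 80881 peaks of open chromatin in the deposited annotated table, 1007 were assigned by the authors to a Zfp gene, chosen by a symbol of Zfp, digits and at most 1 closing letter. These 1007 peaks belonged to 337 genes. The assay was ATAC-seq: a transposase cuts accessible DNA and leaves adapters for sequencing. The cells were KPC cells, a mouse lung adenocarcinoma line from a KP tumour that had been transduced with SpCas9 and selected with puromycin. Cells of the group mA2 dRNA received the CRISPR activation vector lenti-SAM-Hygro with a guide to Malat1, a long noncoding RNA gene. Cells of the group Con dRNA received the same vector with a guide to luciferase, which mouse cells lack. Both groups were this 1 line with Cas9 and the vector, in 2 biological replicates each, and the comparison addressed whether raised Malat1 expression alters accessibility. The table's contrast was headed dmA12 and dLuc, and the first was taken to be mA2 dRNA because the series holds no other targeted group. Only the authors' mean of each group could be tied to a sample group, so the values below are group means of normalized reads with no spread between replicates, and a call is an adjusted p under 0.05, as the authors' deposited table gives it.

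A zinc finger of the C2H2 kind is a short fold held by a zinc ion, and arrays of such fingers read DNA sequence. Many mammalian Zfp proteins join their fingers to a KRAB domain, which recruits TRIM28 and, through it, the histone methyltransferase SETDB1, and these proteins silence retroelements and keep imprints. Such genes multiplied by tandem duplication and lie in clusters. Other proteins with Zfp symbols are developmental regulators without KRAB, and some, such as Zfp36, carry fingers of another kind that bind RNA. Near-identical clustered copies can share reads, and how reads with several matches in the genome were treated was not stated in the sources used here.

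The sequence at Zfp start sites came from RefSeq. Its windows of 300 bases on GRCm38.p6, the assembly that mm10 names, were available for 401 start sites of 331 Zfp genes, 280 of them genes with a peak. Each window holds 250 bases before the start and 50 after it. The start lay in a peak for 264 Zfp windows (65.8%), against 31.5% of all 32851 windows. The 6 stretches below show the only Zfp promoter called (Zfp941), the 2 promoters beside the Zfp peak with the smallest p (Zfp658 and Zfp719), a CpG-rich promoter (Zfp36), the promoter of a gene with a called distant peak (Zfp622) and that of a retroelement silencer (Zfp932). Each runs 5′ to 3′ toward the start and is limited to bases outside the RefSeq bounds of its gene, and capitals mark matches on either strand to the CCAAT box, the GC box motif GGGCGG, the ETS site CCGGAAG, the NRF1 core CGCATGCG, the ZNF143 core CTACAATTC, the CRE site TGACGTCA, the AP-1 site TGACTCA or the TATA motif TATAAA, each searched by itself whether or not it overlapped another. They lie at chr7:140822202-140822428, minus strand (Zfp941); chr7:43562120-43562201, plus strand (Zfp658); chr7:43579336-43579558, plus strand (Zfp719); chr7:28379229-28379478, minus strand (Zfp36); chr15:25984116-25984365, plus strand (Zfp622); and chr5:109996260-109996501, plus strand (Zfp932).
Zfp941: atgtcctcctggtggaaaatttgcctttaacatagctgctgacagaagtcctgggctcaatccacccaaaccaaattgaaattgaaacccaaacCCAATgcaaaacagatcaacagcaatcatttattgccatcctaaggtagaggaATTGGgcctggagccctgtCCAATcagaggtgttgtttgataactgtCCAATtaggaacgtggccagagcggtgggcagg
Zfp658: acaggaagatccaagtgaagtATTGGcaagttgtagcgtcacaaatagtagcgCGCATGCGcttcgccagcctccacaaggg
Zfp719: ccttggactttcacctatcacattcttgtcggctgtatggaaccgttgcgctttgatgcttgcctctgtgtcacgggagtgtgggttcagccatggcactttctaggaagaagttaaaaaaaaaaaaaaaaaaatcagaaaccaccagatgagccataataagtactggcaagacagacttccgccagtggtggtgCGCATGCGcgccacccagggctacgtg
Zfp36: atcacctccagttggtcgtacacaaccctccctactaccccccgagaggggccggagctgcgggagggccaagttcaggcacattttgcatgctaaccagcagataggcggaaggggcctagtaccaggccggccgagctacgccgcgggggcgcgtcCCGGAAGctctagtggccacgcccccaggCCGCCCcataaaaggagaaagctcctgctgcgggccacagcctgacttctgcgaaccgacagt
Zfp622: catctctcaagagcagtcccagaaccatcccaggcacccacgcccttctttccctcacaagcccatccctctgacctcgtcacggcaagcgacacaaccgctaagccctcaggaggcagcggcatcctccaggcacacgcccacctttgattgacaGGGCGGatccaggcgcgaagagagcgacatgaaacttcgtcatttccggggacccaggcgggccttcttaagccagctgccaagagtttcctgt
Zfp932: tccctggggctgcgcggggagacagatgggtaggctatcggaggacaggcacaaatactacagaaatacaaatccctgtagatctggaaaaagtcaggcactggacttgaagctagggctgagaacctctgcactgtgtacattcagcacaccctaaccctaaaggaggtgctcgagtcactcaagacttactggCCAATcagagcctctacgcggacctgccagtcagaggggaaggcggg

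The Zfp941 stretch holds 4 CCAAT boxes and 2 CpG dinucleotides in 227 bases, and its peak was the promoter peak called lower in mA2 dRNA. An NRF1 core stands in the Zfp658 and Zfp719 stretches, and the Zfp658 stretch adds a CCAAT box. The Zfp36 stretch has 18 CpG dinucleotides, an ETS site and a GC box in 250 bases. Zfp windows hold more starts in a peak than windows in general, so each motif is given over all windows and then over windows whose start lay in a peak. The CCAAT box stood in 47.4% of Zfp windows, against 37.4% of all, and in peaks in 50.4% of Zfp windows, against 40.5% of all. The ETS site stood in 21.2% of Zfp windows, against 8.86% of all, but in peaks the shares were close, 22.3% of Zfp windows against 19.7% of all. The GC box stood in 44.1% of Zfp windows, against 35.7% of all, and the order turned in peaks, with 46.6% of Zfp windows against 66.5% of all. The ZNF143 core stood in 2.49% of Zfp windows, against 0.356% of all, and in peaks in 3.41% of Zfp windows, against 0.774% of all. The TATA motif stood in 6.73% of Zfp windows, against 13.6% of all, and in peaks in 4.55% of Zfp windows, against 6.39% of all. For the NRF1 core the shares were 4.24% of Zfp windows against 1.87% of all, and in peaks 5.68% against 4.13%. CRE sites stood in 3.74% of Zfp windows, against 1.79% of all, and in peaks in 5.68%, against 3.71%. AP-1 sites were rarer at Zfp starts, in 3.24% of Zfp windows against 5.202% of all, and in peaks in 3.41% against 5.28%. Among windows whose start lay in a peak, the median number of CpG dinucleotides was 15.5 at Zfp starts, against 21 at all starts. The share of starts in a peak was also taken by CpG content. With 6 to 11 CpG dinucleotides in the window, 70.8% of Zfp starts lay in a peak, against 22.2% of all starts; with 20 or more, the shares were 73.3% for Zfp starts and 67.0% for all. These are shares of sequence matches, and no factor's binding was measured.

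Promoter peaks made up the largest class of Zfp peaks. These, within 1 kb of the start, numbered 330 (32.8%), against 16.8% of all peaks, and they covered 297 of the 337 genes. Distal intergenic peaks numbered 323 (32.1%, against 33.3% of all) and intronic peaks 240 (23.8%, against 38.4% of all). A further 5.26% lay in exons, 4.47% in 5′ UTRs and 1.49% in 3′ UTRs. The median distance to the assigned start was 11 kb for Zfp peaks, against 19.3 kb for all peaks. The median peak held 110 normalized reads over both groups, against 73.1 for all peaks. In the promoter class the Zfp median was 282 reads, against 272 for all promoter peaks.

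Few Zfp peaks changed. In the authors' deposited table, 9 Zfp peaks had more reads in mA2 dRNA and 6 had fewer, which is 1.49% of 1007 peaks at 14 genes. The background over all peaks was 2.73% called, with 2.23% higher and 0.507% lower. Before adjustment, p was under 0.05 at 74 Zfp peaks (7.35%) of the authors' deposited table, of which 52 were higher and 22 lower in mA2 dRNA, against a background of 11.7%. The median Zfp peak held 110 reads in mA2 dRNA and 108 in Con dRNA, and the median log2 difference was 0.04, against 0.09 over all peaks. The mA2 dRNA mean was the larger at 569 Zfp peaks (56.5%), against 60.8% of all peaks. Single differences ran between -1.68 and 1.99 on the log2 scale. The balance of 9 higher and 6 lower turned with the scaling: with differences centred on the median of all peaks, along abundance, within each chromosome or within windows of 10 Mb, the counts were 5 higher and 9 lower, 5 and 9, 4 and 6, and 5 and 8. It also turned under some choices of peaks, to 4 higher and 6 lower at peaks with a mean of at least 50 reads. It was 1 and 3 with the strongest peak of each gene and 0 and 1 within 3 kb of a start. At an adjusted p under 0.01 it was 2 and 4. Higher calls stayed the more numerous within 50 kb of a start (5 and 4), with any Zfp symbol (11 and 6) and at a 2-fold minimum (8 and 5). The same held without the 3 genes with most peaks (8 and 6) or without chromosome 18 (7 and 6). In bulk cells, a larger share of cells open at a site and more opening per cell cannot be told apart.

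**Figure D1:**
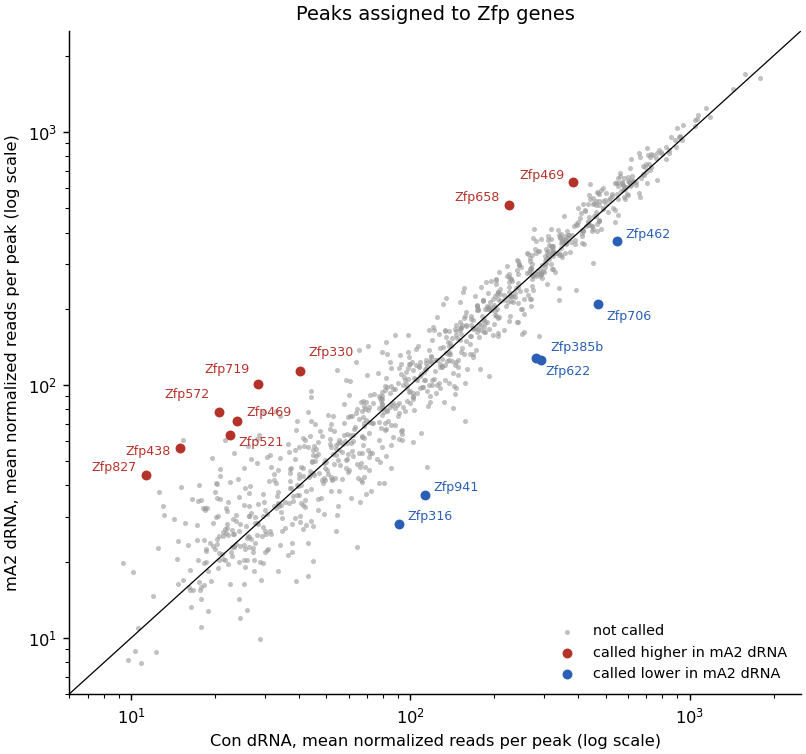
Mean normalized reads of each of the 1007 Zfp peaks in mA2 dRNA (vertical) against Con dRNA (horizontal), both on log scales, with the line of equal values; red points are the 9 peaks called higher in mA2 dRNA and blue points the 6 called lower. Most peaks follow the line, and the scatter widens at low reads, where 7 of the 9 higher calls lie.

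The promoters of Zfp genes had close means in both groups. Of 330 promoter peaks, 0 were called higher in mA2 dRNA and 1 was called lower (0.303%), where 1.42% of all promoter peaks were called. Before adjustment, p was under 0.05 at 9 Zfp promoter peaks (2.73%) of the authors' deposited table, against 7.18% of all promoter peaks. Of the 9, 7 were higher and 2 lower in mA2 dRNA. The group means lay within 1.2-fold of each other at 271 promoter peaks (82.1%), against 74.0% of all promoter peaks, and more than 1.5-fold apart at 8 (2.42%), against 7.50% of all. The weakest peaks differed in depth, with a 5th percentile of 52.6 mean reads for Zfp promoter peaks and 31.2 for all promoter peaks. The part of depth in these shares was not tested. The median log2 difference was 0.05, against 0.07 for all promoter peaks. Away from promoters, 677 Zfp peaks of 206 genes held 9 higher and 5 lower calls (2.07%), against 3.0% of all such peaks. Their median log2 difference was 0.03, against 0.10. Promoter peaks had 282 reads at the median and the others 65.0, so the classes also differ in the depth behind each value.

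**Figure D2:**
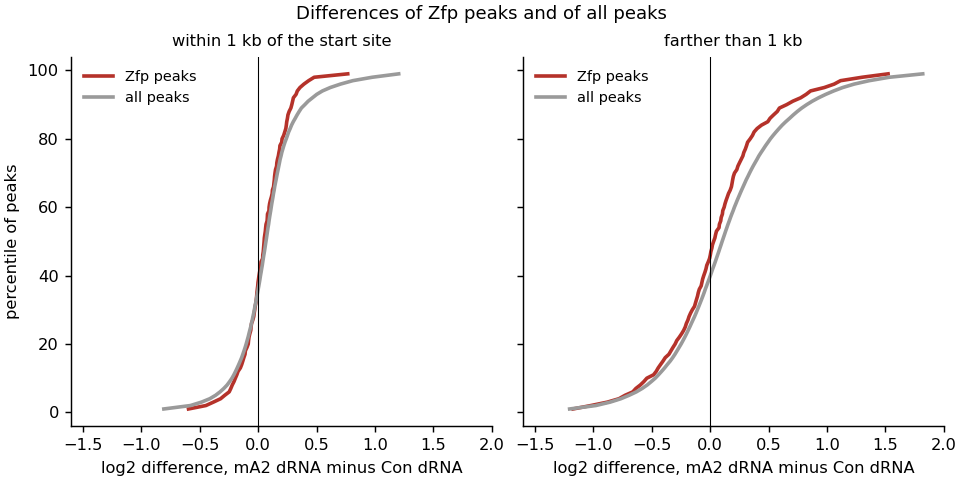
Percentiles (vertical) of the log2 difference of mean normalized reads, mA2 dRNA minus Con dRNA (horizontal), for Zfp peaks in red and all peaks in grey, within 1 kb of the start site on the left and farther on the right. The 10th and 90th percentiles are -0.20 and 0.29 for Zfp promoter peaks and -0.22 and 0.40 for all promoter peaks; farther out they are -0.54 and 0.66 for Zfp peaks and -0.47 and 0.83 for all.

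The promoter that fell was that of Zfp941 (chr7:140821905-140822305, over the start). It held 36.7 reads in mA2 dRNA, against 112 in Con dRNA, a 3.06-fold lower mean (the authors' deposited table, adjusted p = 0.00392). Of 5 peaks within 30 kb, 4 also had the smaller mean in mA2 dRNA, and none of the 5 was called. Over all peaks, 60.8% had the larger mean in mA2 dRNA. The largest promoter rise among peaks with a mean of at least 50 reads was at Zfp61 (chr7:24300796-24301196), with 77.8 reads in mA2 dRNA and 42.9 in Con dRNA. That 1.81-fold difference was not called (the authors' deposited table, adjusted p = 0.390). The other promoter peaks with an unadjusted p under 0.05 also missed the call. Zfp638, a protein that silences unintegrated retroviral DNA in human cells, had 216 reads in mA2 dRNA and 340 in Con dRNA (the authors' deposited table, adjusted p = 0.0746). Zfp655 had 623 reads in mA2 dRNA and 439 in Con dRNA (the authors' deposited table, adjusted p = 0.0740). Zfp36, or tristetraprolin, which destabilises messenger RNAs of inflammatory cytokines, had 2 such peaks, with 779 and 599 reads in mA2 dRNA and 617 and 489 in Con dRNA (the authors' deposited table, adjusted p = 0.348 and 0.418).

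The Zfp call with the smallest p lay between Cd33 and Zfp658 on chromosome 7. The peak at chr7:43554506-43554906, 7.35 kb upstream of the Zfp658 start, held 516 reads in mA2 dRNA and 225 in Con dRNA, 2.30-fold higher (the authors' deposited table, adjusted p = 1.53e-05). A peak assigned to Zfp719 at chr7:43571175-43571575, which lies within the RefSeq bounds of Zfp658, held 101 reads in mA2 dRNA and 28.5 in Con dRNA, 3.55-fold higher (the authors' deposited table, adjusted p = 0.00447). Over all peaks, the mA2 dRNA mean was the larger at 60.8%. It was the larger at all 6 peaks within 30 kb of the Zfp658 call. One of them, assigned to Cd33, a sialic acid receptor gene of myeloid cells, was called as well, with 91.4 reads in mA2 dRNA and 35.2 in Con dRNA (the authors' deposited table, adjusted p = 0.0296). The promoters in the same stretch, printed above, were near equal. The Zfp658 promoter held 290 reads in mA2 dRNA and 271 in Con dRNA, and the Zfp719 promoter held 525 in mA2 dRNA and 456 in Con dRNA (the authors' deposited table, adjusted p = 0.981 and 0.794).

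Zfp469 was the only Zfp gene with 2 calls. Variants of its human counterpart ZNF469 cause brittle cornea syndrome. Its 20 peaks, on chromosome 8, included 19 with the larger mean in mA2 dRNA, where 60.8% of all peaks had it. The median log2 difference was 0.34, against 0.11 for all peaks on chromosome 8. Some of the 19 lay below that chromosome median, among them the peak 113 kb before the start (0.098). The peak 76.8 kb before the authors' start site (chr8:122181393-122181793) held 631 reads in mA2 dRNA and 384 in Con dRNA, 1.64-fold higher (the authors' deposited table, adjusted p = 0.0130). The peak 103 kb before it (chr8:122155147-122155547) held 72.0 reads in mA2 dRNA and 23.9 in Con dRNA, 3.01-fold higher (the authors' deposited table, adjusted p = 0.0335). Both are intronic, since RefSeq places the gene's bounds at chr8:122043123-122272650. The widest difference of any Zfp peak, 60.6 reads in mA2 dRNA and 15.3 in Con dRNA at -11.4 kb of the start, missed the call (the authors' deposited table, adjusted p = 0.103). At the start site the means were 117 reads in mA2 dRNA and 98.0 in Con dRNA. The highest peak, 113 kb before the start, held 1694 reads in mA2 dRNA and 1582 in Con dRNA. The first call was lost when differences were centred by chromosome (adjusted p = 0.0638) or by 10 Mb window (adjusted p = 0.106), and the second under all 4 centrings, where the adjusted p, recomputed from the authors' deposited table, lay between 0.0589 and 0.0885.

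**Figure D3:**
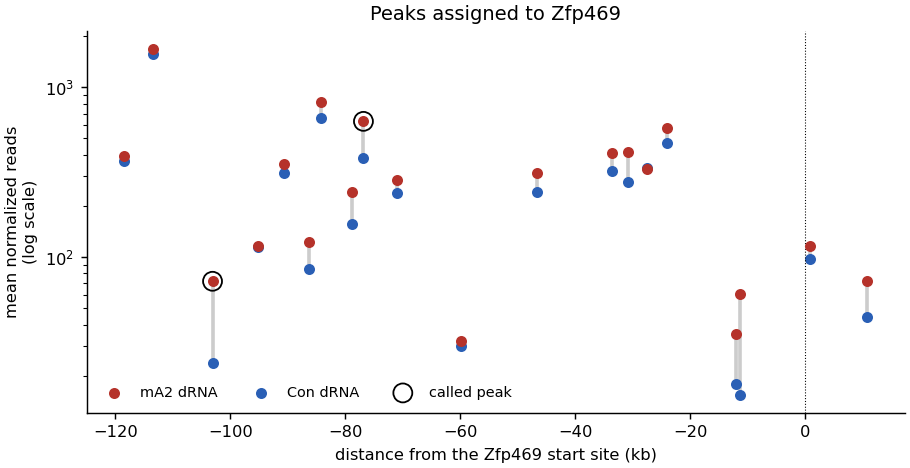
Mean normalized reads (vertical, log scale) of the 20 peaks assigned to Zfp469 against distance from the authors' start site in kb (horizontal), with mA2 dRNA in red and Con dRNA in blue; grey bars join the 2 means and circles mark the 2 called peaks. At 19 of the 20 peaks the mA2 dRNA mean is the larger, as it is at 60.8% of all peaks.

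The other 5 higher calls were at peaks with few reads in Con dRNA. Zfp827, whose human counterpart recruits a remodelling complex to telomeres, had an intronic peak (chr8:79046657-79047057) with 44.0 reads in mA2 dRNA and 11.3 in Con dRNA, 3.90-fold higher, the widest ratio among the calls (the authors' deposited table, adjusted p = 0.0486). A peak 42.6 kb before the Zfp572 start (chr15:59263997-59264397) lay inside the noncoding RNA gene Gm36617. It had 78.1 reads in mA2 dRNA and 20.5 in Con dRNA (the authors' deposited table, adjusted p = 0.0180). All 5 peaks within 30 kb had the larger mean in mA2 dRNA, as did 60.8% of all peaks. Of the 5, those with log2 differences of 0.04, 0.13 and 0.20 lay below the median of all peaks on chromosome 15, 0.21. A peak 96.0 kb past the start of Zfp330, a nucleolar protein gene (chr8:82677749-82678149), had 114 reads in mA2 dRNA and 40.1 in Con dRNA (the authors' deposited table, adjusted p = 0.0225). On chromosome 18, a peak 45.8 kb before the Zfp438 start (chr18:5380647-5381047) had 56.4 reads in mA2 dRNA and 14.9 in Con dRNA (the authors' deposited table, adjusted p = 0.0358). Also there, a peak assigned to Zfp521 over a distance of 412 kb, inside Gm41670 (chr18:13560493-13560893), had 63.1 reads in mA2 dRNA and 22.5 in Con dRNA (the authors' deposited table, adjusted p = 0.0445). Over all 9 higher calls the ratio was 1.64 to 3.90, with a median of 3.01, and the Con dRNA mean was 11.3 to 384 reads, with a median of 23.9. The calls assigned to Zfp658 and Zfp719 were kept under all 4 centrings. Other loci were mixed: within 30 kb, the mA2 dRNA mean was the larger at 5 and the smaller at 3 peaks near the Zfp827 call, at 5 and 2 near the Zfp438 call, and at 1 and 1 near the Zfp521 call, while the 1 peak near the Zfp330 call was larger. Each of the 5 calls at Zfp827, Zfp572, Zfp330, Zfp438 and Zfp521 was lost under at least 1, where its adjusted p, recomputed with the authors' deposited table, lay between 0.0516 and 0.0950.

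The 6 lower calls lay at peaks with more reads. Their Con dRNA means were 90.7 to 548, with a median of 288, and the ratio of Con dRNA to mA2 dRNA was 1.48 to 3.21, with a median of 2.30. All 6 were kept under all 4 centrings. The median log2 difference of all peaks was 0.09, so centring on it widens every lower difference and narrows every higher one. The other centrings also widened most of the lower differences. That the lower calls were kept is therefore no separate support for them. Within 30 kb of the Zfp622 and Zfp706 calls, 1 peak had the larger and 1 the smaller mean in mA2 dRNA at each. Near the Zfp385b and Zfp462 calls the 1 peak at each had the smaller mean. Over all peaks, the mA2 dRNA mean was the larger at 60.8%. Zfp316 had the widest fall, at a 5′ UTR peak 4.89 kb past its start (chr5:143264730-143265130), with 28.3 reads in mA2 dRNA and 90.7 in Con dRNA (the authors' deposited table, adjusted p = 0.00580). All 6 peaks within 30 kb of it had the smaller mean in mA2 dRNA. The nearest to a call among them, an exonic peak at -1.65 kb of the Zfp316 start, held 304 reads in mA2 dRNA and 450 in Con dRNA (the authors' deposited table, adjusted p = 0.0833). Zfp385b, of a family with fingers of the matrin kind, had an intronic peak (chr2:77713887-77714287) with 125 reads in mA2 dRNA and 295 in Con dRNA, 2.35-fold lower (the authors' deposited table, adjusted p = 0.00179). An intergenic peak 36.7 kb from Zfp622, a factor of large ribosomal subunit maturation, had 127 reads in mA2 dRNA and 281 in Con dRNA (chr15:26021100-26021500, the authors' deposited table, adjusted p = 0.00323). A peak 33.4 kb before the start of Zfp706, a small zinc finger protein, in an exon of another transcript (chr15:37041200-37041600), had 209 reads in mA2 dRNA and 469 in Con dRNA (the authors' deposited table, adjusted p = 0.0124). Zfp462, a large nuclear regulator needed in neural development, had the smallest fall, at a peak 196 kb past its start and beyond its RefSeq bounds (chr4:55141306-55141706) with 370 reads in mA2 dRNA and 548 in Con dRNA (the authors' deposited table, adjusted p = 0.0381).

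**Figure D4:**
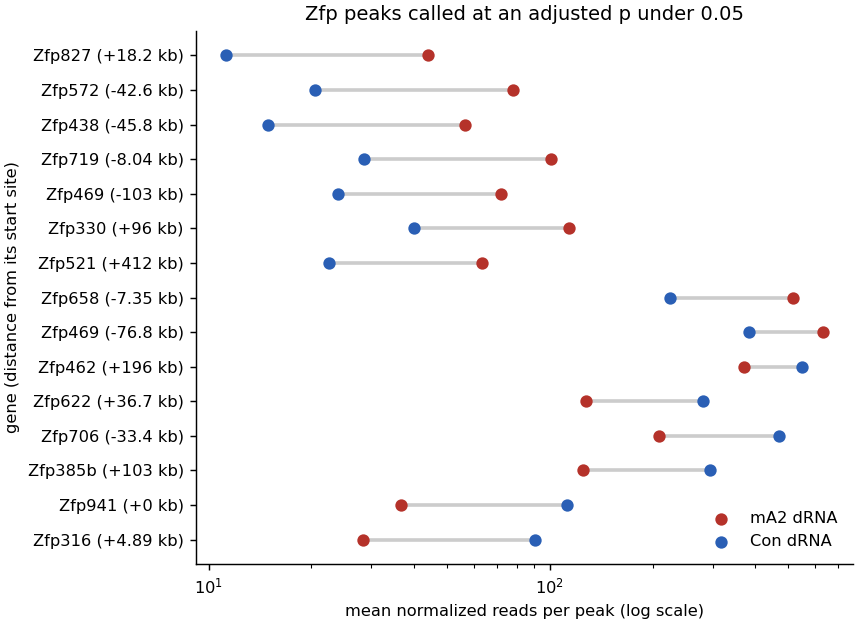
Mean normalized reads (horizontal, log scale) in mA2 dRNA (red) and Con dRNA (blue) of the 15 called Zfp peaks, 1 per row, named by gene with the distance in kb from its start site (negative is upstream). The 9 higher calls are above the 6 lower calls; Zfp827 has the widest ratio upward (3.90) and Zfp316 the widest downward (3.21).

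The silencers of imprints and retroelements had 13 peaks, too few for a count of 0 calls to stand apart from a background of 2.73%. The list held Zfp57 and Zfp445, which keep imprints, Zfp568, which silences a placental Igf2 transcript, and Zfp708, Zfp809 and Zfp932, which silence retroelements. These peaks held 0 calls and 0 with an unadjusted p under 0.05 (the authors' deposited table), and the median log2 difference was 0.01. The smallest p was at a 5′ UTR peak of Zfp57, with 330 reads in mA2 dRNA and 265 in Con dRNA (the authors' deposited table, adjusted p = 0.837). An intergenic Zfp57 peak 3.72 kb upstream held 166 reads in mA2 dRNA and 145 in Con dRNA, and an intronic Zfp568 peak held 154 in mA2 dRNA and 176 in Con dRNA. The promoters of Zfp568, Zfp809 and Zfp932 were open in both groups, while the Zfp57 peaks lay 1.16 kb and 3.72 kb from its start. Zfp568 had 832 reads in mA2 dRNA and 787 in Con dRNA, and Zfp809 had 495 in mA2 dRNA and 491 in Con dRNA. Zfp932, whose stretch with 1 CCAAT box is printed above, had 245 in mA2 dRNA and 273 in Con dRNA. The corepressors that KRAB proteins recruit, with their chromatin partners, gave 126 peaks at 30 of 34 listed genes, 0 of them called, against 2.73% of all peaks. In the authors' deposited table, 11 (8.73%) had an unadjusted p under 0.05, against 11.7% of all peaks. Their median log2 difference was 0.00. The smallest p was at an intronic peak of Morc2a, an ATPase of HUSH silencing, with 67.7 reads in mA2 dRNA and 165 in Con dRNA (the authors' deposited table, adjusted p = 0.0782). A neighbouring Morc2a peak in an exon held 50.7 reads in mA2 dRNA and 115 in Con dRNA. A peak assigned to the HUSH subunit gene Tasor, within Arhgef3, held 83.3 reads in mA2 dRNA and 38.9 in Con dRNA, and one assigned to Cbx3, a heterochromatin protein gene, held 69.0 in mA2 dRNA and 28.7 in Con dRNA. The Setdb1 promoter held 276 reads in mA2 dRNA and 305 in Con dRNA, and no peak was assigned to Trim28.

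Developmental regulators gave 103 peaks at 13 of 14 listed genes, with 1 call higher, at Zfp521, a partner of early B-cell factors, and 1 lower, at Zfp462 (1.94%, against 2.73% of all peaks). In the authors' deposited table, 9 (8.74%, against 11.7% of all peaks) had an unadjusted p under 0.05. The median log2 difference of the 103 peaks was 0.03. A further Zfp521 peak, 401 kb past the start, held 78.8 reads in mA2 dRNA and 33.1 in Con dRNA and was not called (the authors' deposited table, adjusted p = 0.0976). Stem cell and growth regulators gave 53 peaks at 10 of 12 listed genes with 0 calls, 2 (3.77%, against 11.7% of all peaks) with an unadjusted p under 0.05 (the authors' deposited table), and a median log2 difference of 0.13. Their smallest p was at an intronic peak of Zfp217, whose human counterpart is amplified in breast cancer, with 148 reads in mA2 dRNA and 81.4 in Con dRNA (the authors' deposited table, adjusted p = 0.232). Zfp143, which binds promoters of small nuclear RNA genes, had an intronic peak with 380 reads in mA2 dRNA and 275 in Con dRNA. Zfp148 had a 5′ UTR peak with 279 reads in mA2 dRNA and 207 in Con dRNA. Proteins of RNA, ribosomes, ubiquitin and mitosis gave 49 peaks at 12 of 14 listed genes, with 0 higher and 3 lower calls. That is 6.12%, against 2.73% of all peaks called and 0.507% called lower, and the 3 were those of Zfp385b, Zfp622 and Zfp706 above. An unadjusted p under 0.05 was found at 8 (16.3%, against 11.7% of all peaks) in the authors' deposited table. The list was chosen with earlier results of these data known and its peaks are few, so these shares are not an independent result. The median log2 difference of the 49 peaks was 0.09, equal to that of all peaks at this rounding. The promoters of 2 of these genes had the larger mean in mA2 dRNA: Zfp622 had 1036 reads in mA2 dRNA and 904 in Con dRNA, and Zfp706 had 813 in mA2 dRNA and 712 in Con dRNA (the authors' deposited table, adjusted p = 0.479 and 0.700).

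Peaks were unevenly spread over genes. Of the 337 genes, 142 had 1 peak, 44 had at least 5, and 17 had at least 10 and together held 297 peaks. The median was 2 peaks for a Zfp gene, against 3 for all genes. Zfp608 had the most, 51 peaks on chromosome 18, of which 16 had the larger mean in mA2 dRNA; its median log2 difference was -0.13 and it had no call. Zfp521 followed with 27 peaks (11 larger in mA2 dRNA, median -0.11), then Zfp217 with 23 (17 larger, median 0.19), Zfp462 with 22 (15 larger, median 0.20) and Zfp469 with 20. Among the 44 genes with at least 5 peaks, the median lay above 0 at 29, where 60.8% of all single peaks lay above 0. All peaks had the larger mean in mA2 dRNA at 2 of these genes, Zfp619 (7 peaks) and Zfp691 (5 peaks), and none had all peaks smaller. The smallest log2 difference was 0.08 at Zfp619, on chromosome 7, and 0.02 at Zfp691, on chromosome 4. Both lie below the medians of all peaks on those chromosomes, 0.15 and 0.095. Zfp24, at the other side, had 1 of 8 peaks larger in mA2 dRNA and a median of -0.22. Zfp619, Zfp691 and Zfp24 were picked out after their values were seen.

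**Figure D5:**
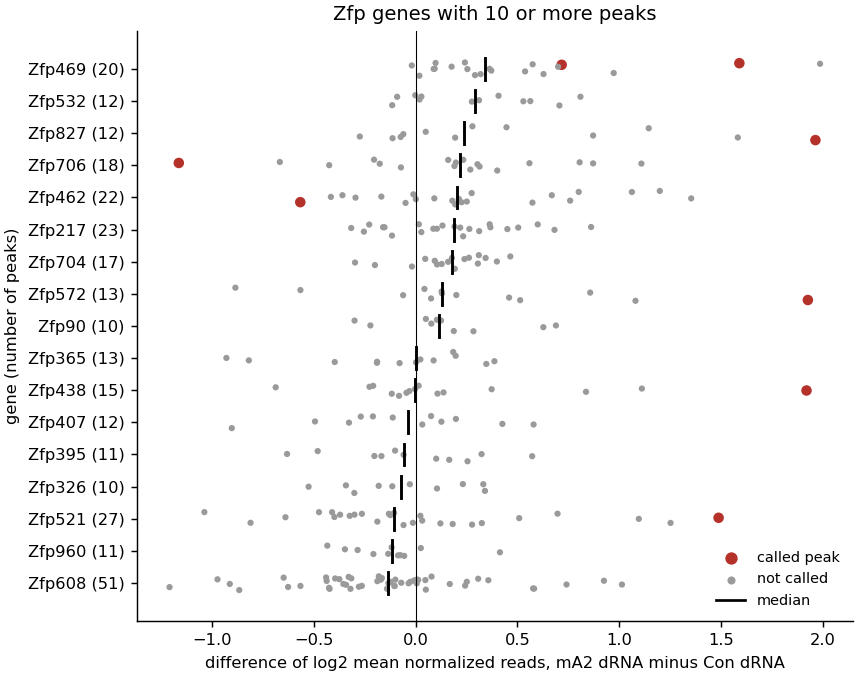
Log2 difference of mean normalized reads, mA2 dRNA minus Con dRNA (horizontal), of each peak of the 17 Zfp genes with at least 10 peaks (rows, with the number of peaks), red where called and grey where not; black bars are medians. Medians lie between -0.13 (Zfp608) and 0.34 (Zfp469), and most genes have peaks on both sides of 0.

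The most open Zfp sites had close means in both groups. The promoter of Zfp687 (chr3:95015405-95015805), with variants of its human counterpart in Paget disease of bone, held 1627 reads in mA2 dRNA and 1790 in Con dRNA (the authors' deposited table, adjusted p = 0.674). The promoter of Zfp869 (chr8:69716852-69717252) held 1477 reads in mA2 dRNA and 1429 in Con dRNA. A 5′ UTR peak of Zfp574 held 1247 reads in mA2 dRNA and 1144 in Con dRNA, and an exonic peak assigned to Zfp958, within Gm6410, held 1144 in mA2 dRNA and 1185 in Con dRNA. With the Zfp469 peak above, these were the 5 strongest Zfp peaks, none was called, and the direction of all but that of Zfp958 turned under at least 1 centring.

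Peaks assigned to clustered genes lay mainly at their starts. RefSeq lists 399 genes by the symbol rule, and 62 had no peak. With at least 3 other Zfp genes within 1 Mb, 180 of 221 genes had a peak (81.4%), and 175 of their 309 peaks were promoter peaks (56.6%). With 1 or 2 others, 58 of 66 genes had a peak (87.9%), and 33.9% of 168 peaks were promoter peaks. With no other, 99 of 112 genes had a peak (88.4%), and 18.5% of 530 peaks were promoter peaks. Peaks were assigned to the nearest gene, so a gene with close neighbours has less sequence around it from which to take distant peaks. The part of this assignment in the promoter shares was not tested. Promoter reads were alike in these classes, with medians of 286, 281 and 280. The calls were 2 higher and 0 lower in the first class, 0 and 2 in the second, and 7 and 4 in the third, which is 0.647%, 1.19% and 2.08% of their peaks, against 2.73% of all peaks. The first class also has the largest share of promoter peaks, of which 1.42% were called over all genes, against 3.0% of peaks elsewhere. In the first class the median log2 difference was 0.07 at promoters and 0.01 elsewhere. In the second it was -0.02 at promoters and -0.07 elsewhere, and in the third 0.05 at promoters and 0.09 elsewhere, so the medians followed no order by clustering.

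Chromosome 7 held 152 Zfp peaks at 85 genes, with a median log2 difference of 0.14, against 0.15 for all peaks there. Chromosome 18 held 143 peaks at 11 genes, with a median of -0.09, against -0.02 for all its peaks. Chromosome 8 held 92 peaks at 22 genes and 4 of the 9 higher calls, with a median of 0.09, against 0.11. The Zfp median lay below that of all peaks on 16 of 20 chromosomes, among them chromosome 13 (0.10 against 0.23) and chromosome 2 (0.01 against 0.14). It lay above on the other 4, which were chromosomes 3 (0.09 against -0.02), 12 (0.07 against -0.01), 16 (0.33 against 0.26) and 9, where both were 0.13 at this rounding. Some of these medians rest on few Zfp peaks: chromosomes 16, 12, 19 and X held 6, 7, 8 and 8. Promoter peaks were 32.8% of Zfp peaks, against 16.8% of all. Over all genes their median was 0.07, against 0.10 elsewhere, and the part of this mix in the tally was not tested. Without chromosome 18 the Zfp median was 0.06 over 864 peaks.

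Other C2H2 families were chosen by symbol and set beside the 2.73% of all peaks that were called. Zbtb, Zscan and Zkscan genes have too few peaks for their calls to stand apart from that share. Zbtb genes, with a BTB domain, had 1 higher and 0 lower calls among 122 peaks (0.82%). Zscan and Zkscan genes, with a SCAN domain, had 0 calls among 39 peaks, and 3 with an unadjusted p under 0.05 (the authors' deposited table). The Klf genes, which encode a family binding GC-rich promoter boxes, had 5 higher and 0 lower calls among 168 peaks (2.98%), with a median log2 difference of 0.15. The authors' deposited table gave an unadjusted p under 0.05 at 7.38% of Zbtb, 7.69% of Zscan and Zkscan, and 9.52% of Klf peaks. Over all peaks that share was 11.7%. At the targeted gene, the Malat1 start-site peak held 322 reads in mA2 dRNA and 290 in Con dRNA (the authors' deposited table, adjusted p = 0.978). A stronger Malat1 peak at -0.812 kb held 758 reads in mA2 dRNA and 789 in Con dRNA (the authors' deposited table, adjusted p = 0.983), and RNA was not measured. Peaks within 3 kb of marker genes were found at 8 of 9 lung epithelial genes (14 peaks, none at Epcam) and 4 of 6 fibroblast genes (8 peaks). They were also found at 2 of 5 endothelial genes (2 peaks) and 2 of 7 leukocyte genes (2 peaks). Each list had 0 called, with too few peaks to stand apart from the 2.73% of all peaks. An unadjusted p under 0.05 was found at 3 lung epithelial peaks (21.4%, against 11.7% of all peaks) and at 0 in the other lists (the authors' deposited table). The lung epithelial log2 differences ran between -1.10 and 0.96. The mA2 dRNA mean was the larger at 7 of 8 fibroblast peaks (median log2 difference 0.46), 2 of 2 endothelial peaks (0.47), 2 of 2 leukocyte peaks (0.22) and 7 of 14 lung epithelial peaks (0.00). The median fibroblast peak held 124 reads in mA2 dRNA and 78.7 in Con dRNA, and the part of these differences in the Zfp values was not tested.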

How the data were processed

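ATAC-seq was made from 4 samples, 2 per group, against mm10. Bowtie2, MACS2, DiffBind, ChIPseeker, Picard, deepTools and FastQC are named without role or version, per the submitters' processing notes. The deposited table gives for 80881 peaks the authors' log2 group means of normalized reads, a log2 fold, p-values and adjusted p-values, and the authors' nearest gene and annotation. The adjusted p-values equal a Benjamini-Hochberg adjustment over all peaks. The table's 4 columns of per-library values match no sample label and were not used, so no library depth, replicate spread or count test is given and the precision of a group mean is unknown. The replicates are labelled biological.

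Group means were turned back to reads. Ratios are of these means; the deposited fold is shrunken toward 0, with a median ratio of 0.767 to the difference of means over called peaks. A call is an adjusted p under 0.05 with no fold minimum. Alternatives centred the differences with an error estimated from the deposited difference and p-value. Only the centring on the median of all peaks was run on simulated data, with a constant shift and normal errors. That setting is simpler than these data, so the run does not show how well the centrings work here. Named peaks were all Zfp calls, 3 peaks with the smallest p per Zfp list (4 for corepressors, plus Setdb1), the 5 genes with most peaks, the 5 strongest peaks, and the promoter peaks with the largest rise and fall at 50 reads or more; others were named after their values were seen. The members and lists were chosen with earlier results of these data known. RefSeq gave gene bounds and promoter windows, and all 337 genes matched by gene ID. Python 3.11.15, pandas 2.3.3 and numpy 2.4.6 were used.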

Additional observations from a re-analysis of the deposited data

How the results depend on the processing

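No paired analysis was possible because the per-library columns match no sample label; for the same reason edgeR, DESeq2, the replicate block and leaving out each replicate were not run, and the alternative by finger pattern was not run for lack of protein sequences. Of 15 Zfp calls (9 higher and 6 lower in mA2 dRNA), 1 remained within 3 kb of a start (0 higher and 1 lower), 9 within 50 kb (5 and 4), 4 with the strongest peak of each gene (1 and 3) and 6 at an adjusted p under 0.01 (2 and 4). Counts stayed within 1.5 times with a mean of at least 50 reads (10, of which 4 higher and 6 lower), any Zfp symbol (17, 11 and 6), a 2-fold minimum (13, 8 and 5), and, chosen after seeing the data, without the 3 genes with most peaks (14, 8 and 6) or chromosome 18 (13, 7 and 6). The centrings on the median of all peaks, along abundance, by chromosome and by 10 Mb window gave 14, 14, 10 and 13 calls. They moved the Zfp median, 0.04 as deposited, to -0.0482, -0.0363, -0.0485 and -0.0416, and the share of higher calls over all peaks, 81.5% as deposited, to between 68.9% and 71.2%. In the same order they kept 11, 11, 10 and 11 of the 15 calls, and 8 were kept under all 4. The developmental list had 1 call in place of 2 under the first and second, and the corepressor list 1 in place of 0 by window. Differences of strong peaks turned: Zfp869 to -0.0441, -0.0142, -0.0606 and -0.0222; Zfp469 at 113 kb to -0.00994 by chromosome and -0.0509 by window; Zfp574 to -0.0260 and -0.0201; and, by window, Setdb1 to 0.0103 and Zfp687 to 0.0171. The cause was not tested. Depth limits the low peaks: the called peak with the fewest reads had a mean of 27.6 over both groups.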

Other observations

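Centring made some other Zfp peaks pass. The Zfp638 promoter, the exonic Zfp316 peak and a peak assigned to Zfp983 were called when differences were centred on the median of all peaks or along abundance. With centring by 10 Mb window, a peak assigned to Zfp37 and a further one assigned to Zfp572 were called. None of these 5 peaks was called as deposited.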
